A study of Saccharomyces cerevisiae with 6 samples.

Results

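The genes described here encode abundant enzymes of sugar and amino acid metabolism and the proton pump of the plasma membrane in budding yeast. Genes were chosen by the presence of a value, from candidates named as abundant with earlier results of these data known. Candidates were 10 genes, namely PGI1, FBA1, TPI1, PGK1, GPM1 and CDC19 of glycolysis, the inorganic pyrophosphatase gene IPP1, ILV5 and ILV3 of branched-chain amino acid synthesis and the proton pump gene PMA1. A gene was selected on having array values, that is, when its symbol matched a probe in the platform table and it had a value on at least 2 of the 6 arrays. This left 7 genes of the 670 named genes and unnamed probes that met the same limit. FBA1, GPM1 and TPI1 had no value on any array, although 2, 2 and 38 probes carried their symbols, and nothing can be said of their levels. At the limit itself, ILV3 was the kept gene with the fewest values, on 5 arrays, and no candidate had a value on 1 array only. PGI1, PGK1, CDC19, IPP1, ILV5 and PMA1 had values on all 6 arrays and were compared together with 438 other features, 444 in all.

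The series measured pools of DAmP strains of Saccharomyces cerevisiae, haploids derived from BY4742/BY4741. In a DAmP strain (decreased abundance by mRNA perturbation) a marker cassette placed behind a coding sequence, usually of an essential gene, interrupts the end of the transcript, so that the mRNA carries a long 3' extension with the barcode of the strain. All pools carried these alleles, and each was crossed with a single deletion, of NMD2 (UPF2), of NAM7 (UPF1) or, as the reference, of the open reading frame YEL068C, then grown for 18 generations under selection for both markers. The Cy3 channel held barcodes copied from RNA and the Cy5 channel those of genomic DNA from the same cells, with 2 arrays per pool. The second array of a pool was a technical repeat begun from the cell material of 1 cross, so the errors and p-values here measure technical spread.

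Each level below is a ratio of RNA barcode to DNA barcode on a log2 scale, centred so that the median feature of an array is 0. It compares a barcode with itself and is not a count per length. Because of the centring, a difference between pools is relative to the median feature, whose difference is held near 0. A gene said to rise or fall did so against that median, and a fall may be a smaller rise. The log base and the direction of the ratio are not stated in the deposited table. In the deposited sign, 6 abundant genes outside metabolism all lay below 0 in the YEL068C pool, with a median of -2.52, so the deposited value is likely DNA over RNA and its sign was turned. With the turned sign, the median difference between the mean of both mutants and YEL068C was 0.43 for genes of over 500 and up to 1000 nucleotides and -0.60 for genes of over 3000 nucleotides, and the study is known to have reported short extended mRNAs as the more sensitive to decay. Under the other direction every higher value in the text would be a lower one. A higher ratio may also come from more RNA or from less DNA barcode, and these cannot be told apart here.

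Glycolysis turns glucose into pyruvate and, in fermenting yeast, its enzymes are among the most abundant proteins of the cell. Pyruvate feeds alcoholic fermentation and, in mitochondria, the synthesis of isoleucine, valine and leucine. Nonsense-mediated decay degrades mRNAs on which translation ends far from the normal 3' end, and NAM7 and NMD2 encode core factors of it. The extension of a DAmP mRNA is known to expose the mRNA to this pathway, so the level of each extended mRNA with and without the factors is what the arrays compare.

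The 3 measured glycolytic genes had high levels in all pools. PGK1 encodes phosphoglycerate kinase, which makes ATP in the lower part of the pathway. Its level was 5.22 and 5.98 on the NMD2 arrays, 4.97 and 5.66 on the NAM7 arrays and 3.88 and 4.56 on the YEL068C arrays. All mutant arrays lay above both YEL068C arrays. CDC19 encodes pyruvate kinase, which catalyses the last step of glycolysis. It had 4.90 and 5.56 on the NMD2 arrays, 4.85 and 5.62 on the NAM7 arrays and 4.37 and 5.55 on the YEL068C arrays, so the pools overlapped. PGI1 encodes phosphoglucose isomerase, which acts near the start of the pathway. Its levels of 3.05 and 2.81 in NMD2, 2.88 and 2.59 in NAM7 and 2.73 and 3.18 in YEL068C also overlapped, and the highest of them was on a YEL068C array.

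IPP1 encodes the cytoplasmic inorganic pyrophosphatase, which hydrolyses the pyrophosphate released by biosynthetic reactions. Its level was 3.27 and 3.14 on the NMD2 arrays, 3.17 and 3.01 on the NAM7 arrays and 1.61 and 1.37 on the YEL068C arrays. The mutant pools and the YEL068C pool were well apart, and the 2 arrays of a pool differed by at most 0.25.

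The branched-chain amino acid genes act one after the other in mitochondria, ILV5 (acetohydroxyacid reductoisomerase) before ILV3 (dihydroxyacid dehydratase), yet their extended mRNAs had very different levels. ILV5 had 5.39 and 5.95 on the NMD2 arrays, 5.40 and 5.92 on the NAM7 arrays and 4.67 and 5.31 on the YEL068C arrays. Both mutant pools lay above both YEL068C arrays. ILV3 had 1.48 and 1.62 in NMD2, 1.47 on the single NAM7 array with a value and 1.07 and 1.41 in YEL068C. In every pool the 2 arrays of ILV5 lay above every ILV3 value.

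PMA1 encodes the plasma membrane ATPase that pumps protons out of the cell and sets the membrane potential used for nutrient uptake. Its level was 0.47 and 4.86 on the NMD2 arrays, 0.44 and 4.83 on the NAM7 arrays and -0.70 and 3.43 on the YEL068C arrays. In each pool the second array was far above the first, by 4.40, 4.39 and 4.13, so the pools overlapped when the array number was ignored. This was the largest array difference of the 444 features in every pool, against a median size of 0.38, 0.39 and 0.40 and a second largest of 2.58, 2.61 and 2.17 in the NMD2, NAM7 and YEL068C pools. PMA1 rested on 1 valued probe. The level of PMA1 is therefore not settled by these arrays, whereas the mutant arrays lay above the YEL068C array of the same number in both sets.

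**Figure D1:**
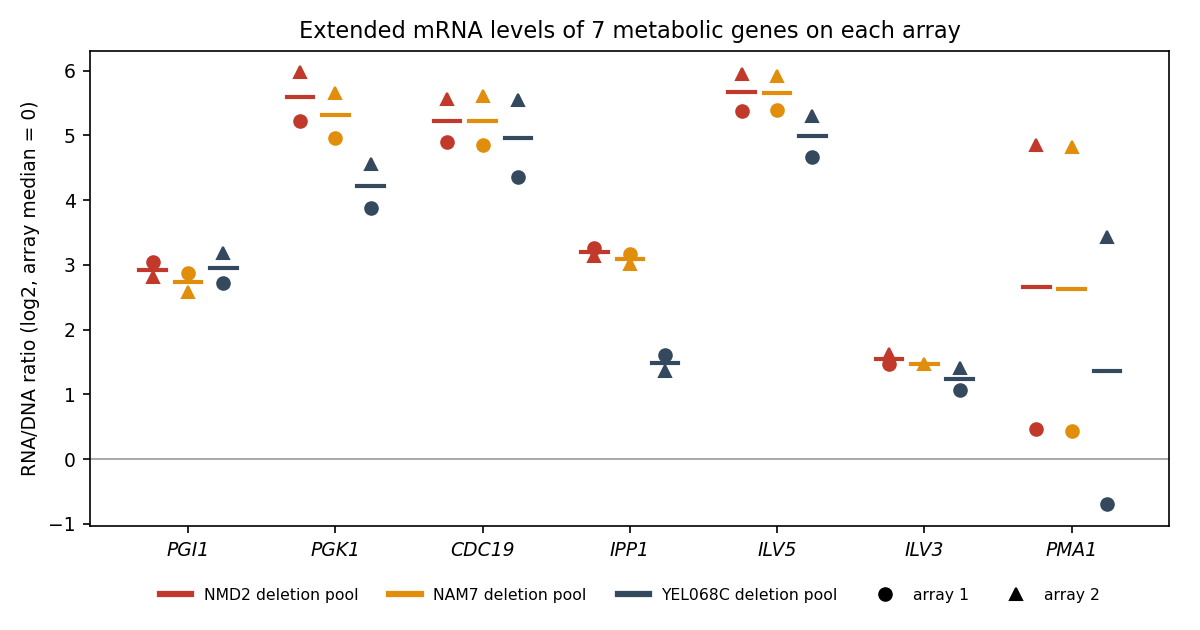
Level of the extended mRNA of each gene (vertical axis, log2 ratio of RNA to DNA barcode, array median 0) in the NMD2, NAM7 and YEL068C deletion pools, with circles for array 1, triangles for array 2 and bars for the mean. PGK1, IPP1 and ILV5 have all mutant points above both YEL068C points, while PMA1 spans from -0.70 to 4.86 with the second array of each pool on top.

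**Figure D2:**
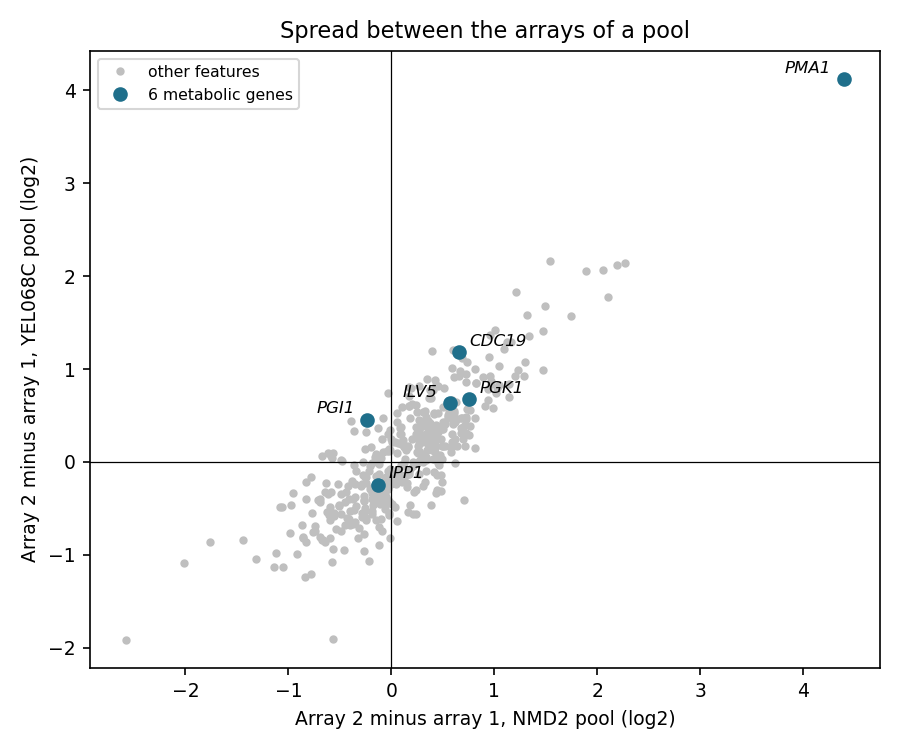
Difference between array 2 and array 1 of a pool (log2) for 444 features, in the NMD2 pool (horizontal axis) and the YEL068C pool (vertical axis). PMA1 stands alone at 4.40 and 4.13, while the other metabolic genes lie within the cloud of features, PGI1 with opposite signs in the 2 pools.

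In the order of mean levels, ILV5, PGK1 and CDC19 held ranks 1, 2 and 3 of 444 in both mutant pools, which would be ranks 444, 443 and 442 if the deposited sign were kept. Means in the NMD2 pool were 5.67 ± 0.40 for ILV5, 5.60 ± 0.53 for PGK1 and 5.23 ± 0.47 for CDC19 (SD, n = 2 arrays). These SDs include a shift between array numbers in the same direction, 0.565, 0.755 and 0.66 from array 1 to array 2. On each NMD2 array ILV5 and PGK1 lay above CDC19. ILV5 lay above PGK1 on array 1 and below it on array 2. The order of these genes was not tested. In the YEL068C pool ILV5 (4.99 ± 0.45) and CDC19 (4.96 ± 0.84) held ranks 2 and 3 and PGK1 (4.22 ± 0.48) rank 6. IPP1 stood at ranks 9 and 10 in the NMD2 and NAM7 pools (3.20 ± 0.09 and 3.09 ± 0.11) and at rank 64 in the YEL068C pool (1.49 ± 0.17). PGI1 stood at ranks 12 and 16 in the NMD2 and NAM7 pools and at rank 12 in the YEL068C pool. ILV3 lay above 84.0% and 82.7% of the compared features in the NMD2 and NAM7 pools and above 81.3% in the YEL068C pool. The lowest mean among the compared genes was that of PMA1 in each pool, 2.66 ± 3.11 in NMD2, 2.63 ± 3.10 in NAM7 and 1.36 ± 2.92 in YEL068C. The 438 other features had a 90th percentile of 1.85, 1.87 and 1.72 in the NMD2, NAM7 and YEL068C pools. All 6 compared genes were above it in the mutant pools and 4 in the YEL068C pool, a description only, since abundance was part of the choice of these genes.

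Between the mutant pools and YEL068C, IPP1, PGK1, PMA1 and ILV5 passed as higher in at least 1 fit, and CDC19 and PGI1 passed in neither. Differences were tested with limma over the 444 features, first without regard to the array number and then with the number as a replicate block, because same-numbered arrays deviated together. In the mean of both mutant pools IPP1 was 1.66 higher than in YEL068C (SE 0.20, 95% interval 1.17 to 2.14, adjusted p = 0.0291, n = 4 against 2 arrays). If the logarithm is to base 2, this is a 3.15-fold difference. Of the 6 genes IPP1 alone passed without the block, where 4.05% of all features passed (2.7% higher). The difference was 1.61 among the arrays numbered 1 and 1.71 among those numbered 2. The IPP1 call without the block was lost when either NMD2 array or either YEL068C array was left out (adjusted p from 0.0986 to 0.215) and when arrays were not centred (1.54, adjusted p = 0.0605).

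With the replicate block 4 of the 6 genes rose in the mean of both mutants and 0 fell, where 29.7% of all features rose and 30.2% fell. IPP1 was called again (SE 0.12, adjusted p = 9.66e-07). PGK1 was 1.24 higher (SE 0.12, 95% interval 0.99 to 1.49, adjusted p = 4.18e-06), with 1.22 and 1.26 among the arrays numbered 1 and 2. Without the block its adjusted p was 0.0903. PMA1 was 1.29 higher (SE 0.12, 95% interval 1.02 to 1.55, adjusted p = 4.18e-06), with 1.15 and 1.42 within the numbers. Without the block the interval for PMA1 ran from -3.07 to 5.64 (adjusted p = 0.695), since the gap between array numbers then counts as error. ILV5 was 0.68 higher (SE 0.12, 95% interval 0.42 to 0.93, adjusted p = 0.000376), with 0.72 and 0.63 within the numbers and an adjusted p of 0.206 without the block. With the block and quantile normalization it was 0.35 (adjusted p = 0.019). Each of these 4 genes passed with the block whichever array was left out.

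The CDC19 difference was 0.27 (95% interval -0.02 to 0.56 with the block, adjusted p = 0.0988), made up of 0.51 among arrays numbered 1 and 0.04 among those numbered 2. Left without YEL068C replicate 2, the blocked test called CDC19 higher (0.51, adjusted p = 0.0266), and under quantile normalization the difference was 0.011 (adjusted p = 0.947 with the block). The PGI1 difference was -0.12 (95% interval -0.46 to 0.21 with the block, adjusted p = 0.517), and its sign differed between the numbers, 0.24 and -0.48. Left without YEL068C replicate 1, the blocked test called PGI1 lower (-0.48, adjusted p = 0.0289). These intervals do not show that the extended mRNAs of CDC19 and PGI1 were unaffected. All mutant arrays lay above both YEL068C arrays for IPP1, PGK1 and ILV5 and not for CDC19, PGI1 or PMA1, while 22.1% of all features had all mutant arrays above.

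ILV3 could be tested only in a fit of features with at least 1 value per pool, 587 in number, since 1 NAM7 array had no value. Its difference was 0.27 in the mean of both mutants (SE 0.25, adjusted p = 0.541) and 0.21 with the block (SE 0.14, 95% interval -0.11 to 0.52, adjusted p = 0.224). All 3 mutant values of ILV3 lay above both YEL068C values, by as little as 0.06.

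**Figure D3:**
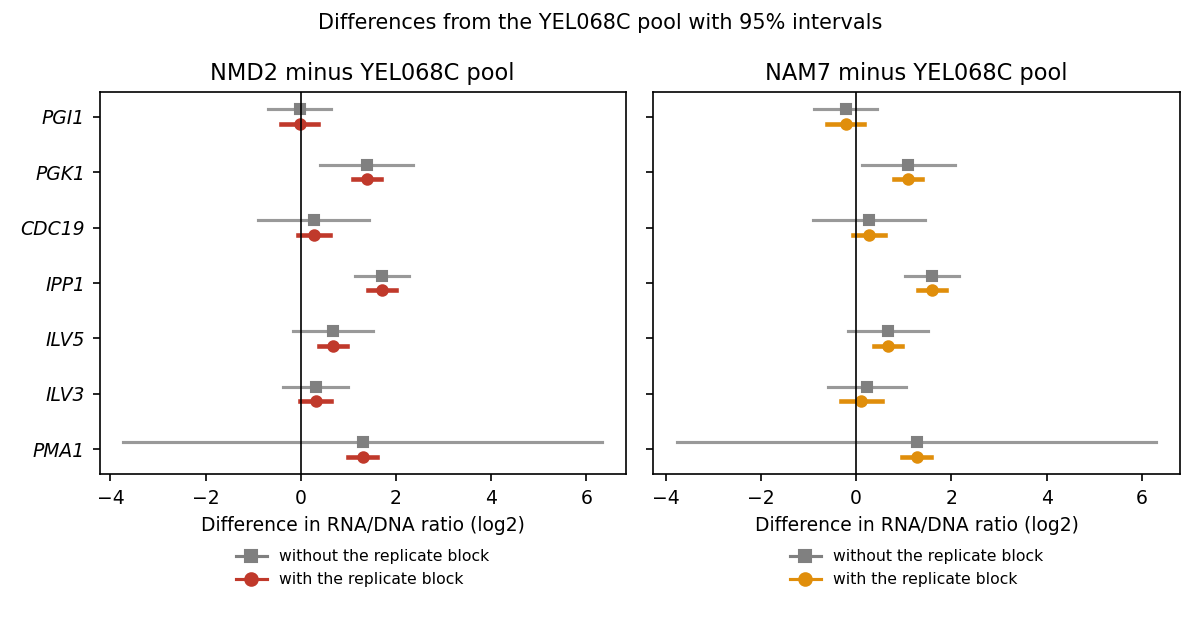
Difference of each gene from the YEL068C pool (horizontal axis, log2) in the NMD2 pool (left) and the NAM7 pool (right), with 95% intervals from limma without the replicate block (grey squares) and with it (coloured circles). The blocked intervals of PGK1, IPP1, ILV5 and PMA1 lie above 0 in both pools, and the unblocked PMA1 interval reaches below -3.

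Taken one by one, each mutant pool had higher levels of IPP1, PGK1, PMA1 and ILV5. The 2 comparisons share the YEL068C arrays, so each is given with its own values. In the NMD2 pool 0 of the 6 genes passed without the block, where 0% of features passed (smallest adjusted p = 0.0533 in limma, with 99 features at an unadjusted p under 0.05). With the block 4 rose, where 28.4% of features rose. IPP1 was 1.71 higher (adjusted p = 1.98e-06), PGK1 1.38 (adjusted p = 7.2e-06), PMA1 1.30 (adjusted p = 1.71e-05) and ILV5 0.68 (adjusted p = 0.00124). CDC19 differed by 0.27 (adjusted p = 0.151) and PGI1 by -0.03 (adjusted p = 0.916). With the block and quantile normalization the ILV5 difference in NMD2 was 0.31 (adjusted p = 0.0681). In the NAM7 pool 0 genes passed without the block, where 0% of features passed (smallest adjusted p = 0.099 in limma, with 91 features at an unadjusted p under 0.05). With the block the same 4 rose, where 25.7% of features rose. IPP1 was 1.60 higher (adjusted p = 7.88e-06), PGK1 1.10 (adjusted p = 4.47e-05), PMA1 1.27 (adjusted p = 2.25e-05) and ILV5 0.67 (adjusted p = 0.00133). CDC19 differed by 0.27 (adjusted p = 0.161) and PGI1 by -0.22 (adjusted p = 0.324). With the block and quantile normalization ILV5 was 0.39 higher in NAM7 (adjusted p = 0.0263).

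The direct comparison of NMD2 with NAM7 asks whether the extended mRNAs depend on which factor is missing. No difference among the 6 genes passed in limma with or without the block, and 0% of all features passed. At an unadjusted p under 0.05 there were 2 features without the block and 55 with it. With the block the PGK1 difference was 0.29 (95% interval -0.01 to 0.58), the widest gap of the 6, and its NMD2 array lay above the NAM7 array of the same number in both sets (0.26 and 0.32). The blocked interval was -0.18 to 0.41 for IPP1, -0.28 to 0.34 for PMA1, -0.28 to 0.30 for ILV5, -0.34 to 0.34 for CDC19 and -0.19 to 0.58 for PGI1. Without the block the intervals were wider, -0.69 to 1.26 for PGK1, -0.45 to 0.68 for IPP1 and -4.99 to 5.05 for PMA1. They were -0.84 to 0.86 for ILV5, -1.17 to 1.17 for CDC19 and -0.46 to 0.85 for PGI1. Any limit on a difference between the pools thus depends on the block and covers technical spread only. The pools are not shown to be equal.

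Within glycolysis the extended mRNAs were also compared with each other on the same array, as differences of log2 levels. PGK1 minus CDC19 was 0.32 and 0.42 on the NMD2 arrays, 0.12 and 0.04 on the NAM7 arrays and -0.49 and -0.995 on the YEL068C arrays. By the means of their probes, PGK1 was thus above CDC19 on all mutant arrays and below it on both YEL068C arrays. The NAM7 gaps were smaller than the largest difference between the 2 probes of PGK1 (0.19) or CDC19 (0.21). On NAM7 array 1, 1 PGK1 probe (4.87) lay below 1 CDC19 probe (4.94). PGK1 minus PGI1 was 2.18 and 3.17 in NMD2, 2.09 and 3.07 in NAM7 and 1.15 and 1.38 in YEL068C, without overlap between mutant and YEL068C arrays. Both of these ratios contain PGK1, whose own mutant arrays all lay above YEL068C, as for 22.1% of all features. They are thus not separate observations, and the share over other pairs of features was not computed. CDC19 minus PGI1 was 1.86 and 2.75 in NMD2, 1.97 and 3.03 in NAM7 and 1.64 and 2.37 in YEL068C, which overlapped. These ratios are free of the array centre and were not tested.

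The study is known for setting the effect of decay against coding length, and these genes were placed in that relation from their RefSeq lengths. The length relation also served in turning the sign of the ratio, so its direction here is no independent result. IPP1, the shortest of the 6 at 864 nucleotides, was 1.66 higher in the mean of both mutants, against a median of 0.40 over 105 other genes of over 500 and up to 1000 nucleotides, of which 1 lay above it. PGK1 (1251 nucleotides) and ILV5 (1188) fall among 107 other genes of over 1000 and up to 1500 nucleotides with a median of 0.24. Of these, 2 lay above PGK1 and 20 above ILV5. CDC19 (1503) and PGI1 (1665) fall among 78 other genes of over 1500 and up to 2000 nucleotides with a median of -0.11. For CDC19, 11 lay above and 67 below, and for PGI1, 39 lay on each side. PMA1, the longest at 2757 nucleotides, was 1.29 higher, whereas the median was -0.34 over the 75 other genes of over 2000 and up to 3000 nucleotides, all of which lay below PMA1. With the block 1.33% of those 75 genes rose and 53.3% fell, relative to the median feature. The place of PMA1 rests on the differences within array numbers, 1.15 and 1.42, beside its gap of over 4 between the numbers.

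**Figure D4:**
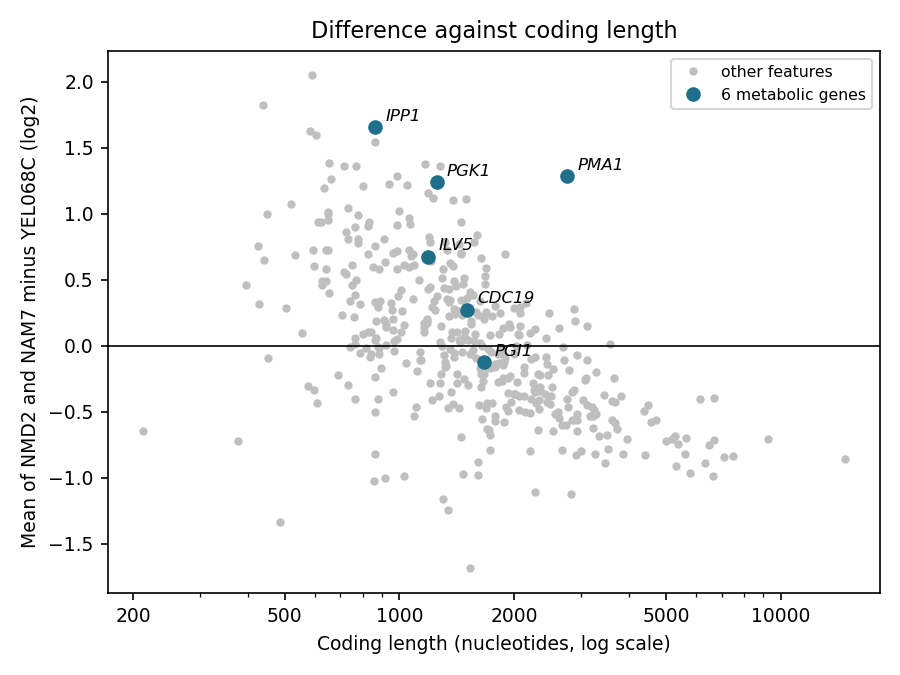
Difference between the mean of the NMD2 and NAM7 pools and the YEL068C pool (vertical axis, log2) against coding length (horizontal axis, nucleotides, log scale) for the compared genes. The 6 metabolic genes are labelled, and PMA1 at 2757 nucleotides and 1.29 lies above all 75 other genes of its length class.

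The 6 metabolic genes were also set beside other features with high levels, taken by the mean over all 6 arrays with each pool weighted equally. The 20 other features with the highest means (2.36 to 4.98) had a median difference of 0.22 between the mean of both mutants and YEL068C, from -1.69 to 1.28. Of them 10 rose and 6 fell with the block, where 29.7% of all features rose and 30.2% fell. The mean of PMA1, 2.22, lay below the range of these 20. The 6 metabolic genes had a median of 0.96, from -0.12 to 1.66, where the median over all 444 features was -0.00. Across the 444 features Spearman's rho between mean level and difference was 0.11, given as a description, since both values come from the same arrays.

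**Figure D5:**
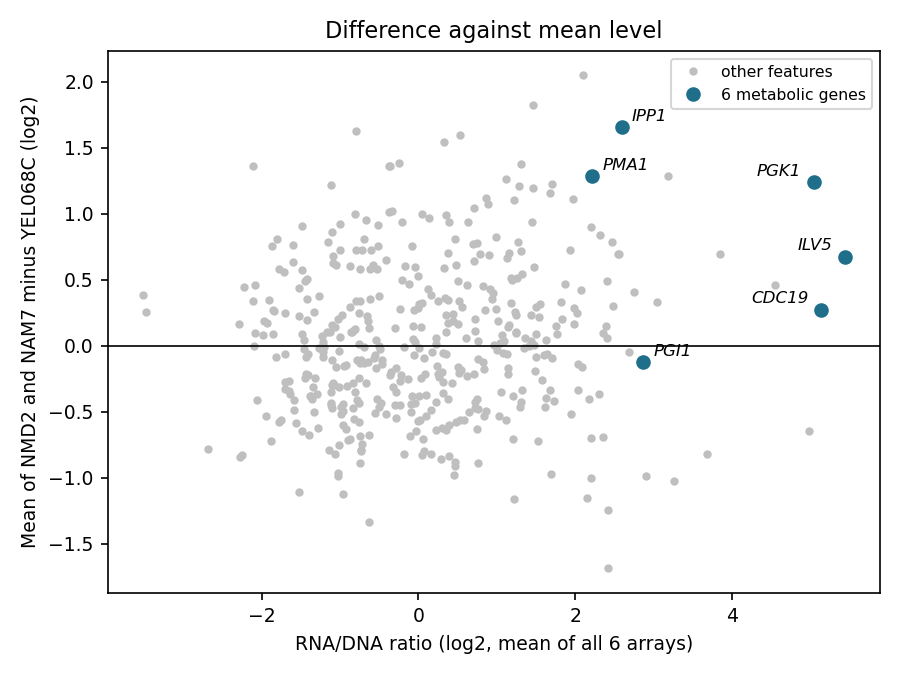
Difference between the mean of the NMD2 and NAM7 pools and the YEL068C pool (vertical axis, log2) against the mean level over all 6 arrays (horizontal axis, log2) for 444 features. PGK1, ILV5 and CDC19 lie at the high end with differences of 1.24, 0.68 and 0.27, and the 20 other features with the highest levels span -1.69 to 1.28.

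Few other genes of the same pathways had values. Of 19 further genes of glycolysis and its control only GCR1, which encodes a transcription activator of glycolytic genes, was compared. Its level was 0.09 and -0.10 in NMD2, 0.13 and -0.18 in NAM7 and 0.12 and -0.45 in YEL068C, and its difference of 0.15 did not pass (adjusted p = 0.33 with the block). Of 24 genes of fermentation and pyruvate use, ACS2, an acetyl-CoA synthetase gene, was compared. It had 1.85 and 2.11 in NMD2, 1.58 and 1.65 in NAM7 and 1.48 and 1.94 in YEL068C, with a difference of 0.09 that did not pass (adjusted p = 0.568 with the block). PDC2 of the same list had no NMD2 value and was not compared. Its single NAM7 value (-0.405, array 2) lay below both YEL068C values (0.595 and 0.25). None of 11 further genes of branched-chain amino acid synthesis, 5 of pyrophosphate and polyphosphate hydrolysis and 22 of proton pumping had values on 2 arrays.

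A wider list of 89 enzymes of small-molecule metabolism had 53 compared genes with a median level of 0.28 in the YEL068C pool and a median difference of 0.49 in the mean of both mutants. With the block 33 rose, 5 fell and 15 did not pass, where 29.7% of all features rose and 30.2% fell. Without it 3 rose and 1 fell, where 2.7% of all features rose and 1.35% fell. By the rule for named genes, OLE1, the fatty acid desaturase gene, fell (-1.69, adjusted p = 0.0437 without the block) and DYS1, the deoxyhypusine synthase gene, rose (1.38, adjusted p = 0.0454). Of 64 genes with abundant mRNAs outside metabolism 6 were compared, with a median level of 2.52 in the YEL068C pool and a median difference of 0.70. With the block 4 rose and 1 fell. PFY1, which encodes profilin, rose (2.05, adjusted p = 0.0291 without the block), and EFB1, a translation elongation factor gene, was 1.28 higher (adjusted p = 0.0637 without the block, 4.18e-06 with it). The same 6 genes gave the direction of the ratio, so their levels are no independent result.

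Likeness was measured as the Euclidean distance over the 6 array values, which weighs the level as well as the differences between pools. The features nearest to ILV5 outside the list were RPB10, a subunit gene of the nuclear RNA polymerases (distance 2.08), the histone gene HTB1 (2.58) and PSA1 of GDP-mannose synthesis (3.98), while CDC19 was closer than any of them (0.97). The difference between the mean of both mutants and YEL068C was -0.64 for RPB10, 0.46 for HTB1 and 0.70 for PSA1, against 0.68 for ILV5. RPB10 was thus near ILV5 in level and opposite to it in direction. Nearest to IPP1 were the translation release factor gene SUP45 (1.19), ESF1 of ribosome biogenesis (1.20) and the sterol demethylase gene ERG11 (1.21). These 3 were 0.70 to 0.84 higher in the mean of both mutants, against 1.66 for IPP1.

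As checks on the values, the 2 valued probes of CDC19, PGI1, PGK1 and IPP1 differed by at most 0.21, 0.14, 0.19 and 0.14 on any array, and ILV5, ILV3 and PMA1 had 1 valued probe each. None of the 7 genes lies on the chromosome of NMD2, NAM7 or YEL068C. The arrays had values for 658 to 798 probes.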

How the data were processed

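The authors deposited 1 table of log ratios, 15743 probe rows on 6 arrays, read here as log2 from its range (-6.2 to 4.09), since no base is stated. Barcodes were amplified from RNA with Cy3 and from genomic DNA with Cy5, per the labels' protocols, and dyes were not swapped. The scaling and software are not given in the sources used here. Signal intensities were not analysed here.

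The sign was turned, probes were averaged per gene, and arrays were centred on the median of the 444 features valued throughout (433 named). Differences were fitted with limma 3.58.1 in R 4.3.3 (lmFit, eBayes, two-sided, Benjamini-Hochberg over all features, threshold 0.05), 1 term per pool, after a test on simulated data. Same-numbered arrays deviated together (correlations 0.89, 0.85 and 0.89 between pools), and titles give the numbers, so the number as a block is given beside results it changes. Coding lengths came from RefSeq's yeast table, which named all 433 genes. Of these lengths 419 were a multiple of 3, those of the metabolic genes among them. At least the rest are not coding length alone. Members, lists and tests were chosen with earlier results of these data known. Beyond the members, the 2 genes with the smallest p per list (all genes where 4 or fewer were compared) and the 3 features nearest to the member with the highest level and to the member with the smallest p were named. Per-array error beyond the spread between 2 arrays could not be measured.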

Additional observations from a re-analysis of the deposited data

How the results depend on the processing

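Counts of genes passing depended most on the replicate block. Of the metabolic genes, 1 passed in the mean of both mutants, 0 in NMD2 and 0 in NAM7 without it, and 4, 4 and 4 with it. Over all features the counts were 18, 0 and 0 without it and 266, 239 and 225 with it. Without the block, 0 metabolic genes and 0 features passed in the mean when arrays were not centred, and 2 features when features with 1 array per pool were fitted. Without centring the median difference over all features was -0.12 in the mean, -0.14 in NMD2 and -0.11 in NAM7. Each probe on its own gave 1 metabolic gene and 2 features in NMD2. All combinations of the block with another choice were made after seeing the data. Block and wider feature set gave 4 metabolic genes in each comparison and 333, 300 and 276 features. Block with quantile normalization gave 4, 3 and 4 metabolic genes and 266, 249 and 225 features, with 4 features between NMD2 and NAM7, and with it the ILV5 difference between NMD2 and NAM7 was -0.0792 and the PGI1 difference between NMD2 and YEL068C 0.0196, the same values as without the block and both opposite in sign to the reported ones. Leaving out 1 array at a time without the block gave 0 to 1 metabolic genes in the mean, 0 to 1 in NMD2 and 0 in NAM7, and 0 to 9, 0 to 7 and 0 features. With the block it gave 4 to 5 metabolic genes in each of the 3 comparisons, and 195 to 247 features in the mean, 124 to 235 in NMD2, 150 to 203 in NAM7 and 0 to 5 between NMD2 and NAM7. Without the block and 1 array, some differences changed sign. The CDC19 difference ran from -0.32 to 0.87 in each of the 3 comparisons with YEL068C. That of PGI1 ran from -0.35 to 0.11 in the mean, -0.25 to 0.20 in NMD2 and -0.45 to 0.0075 in NAM7, and that of PMA1 from -0.78 to 3.35, -0.90 to 3.50 and -0.92 to 3.46. Between NMD2 and NAM7 it ran from -0.09 to 0.67 for PGK1, -2.17 to 2.23 for PMA1 and -0.27 to 0.29 for ILV5. With the block, PGI1 ran from -0.48 to 0.24 in the mean, -0.39 to 0.34 in NMD2 and -0.58 to 0.14 in NAM7, and between NMD2 and NAM7 the range was -0.0075 to 0.40 for PGI1, -0.04 to 0.10 for PMA1 and -0.0325 to 0.0525 for ILV5. Where an array was left out, the lone array of that pool was assumed to vary like the others. The causes of these changes were not tested. Levels could not be set against background, since intensities were not analysed here.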
